A study of Arabidopsis thaliana with 6 samples.

Results

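The GDSL esterase/lipase genes of Arabidopsis thaliana were followed in siliques, the fruits that enclose the developing seeds, at 3 days after pollination. Membership followed from annotation and not from measured values, as every gene whose description in the deposited table contains the term GDSL, which gave 105 genes of 27779. Wild-type siliques (labelled WT) were compared with siliques of the agc1-4 mutant, with 3 libraries of each genotype. Apart from the genotype, the labels give all 6 libraries the same tissue and stage. The WT libraries carry the prefix Col in their labels, which is the usual short form of the Columbia ecotype. The labels do not describe the agc1-4 allele, and leave unsaid whether replicates stem from different plants. The p-values therefore reflect no more than the scatter among these 6 libraries, part or all of which may be technical.

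GDSL esterases and lipases are hydrolases and acyltransferases of plants and microbes whose active-site serine lies in a short conserved block near the start of the protein. Most plant members carry a signal peptide and are secreted to the cell wall, the cuticle or the pollen coat. Studied members of Arabidopsis polymerise cutin, hydrate pollen, lower the oil content of seeds, take part in defence against fungi or steer the breakdown of glucosinolates. In the deposited annotation, 96 of the 105 genes (91.4%) carry the term extracellular region, against 6.04% of all rows.

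Levels are given as FPKM, fragments scaled to transcript length and to the mapped fragments of the library, which can be compared between genes. Estimated counts summed to between 7973366 and 11812934 per library. Between 69 and 79 of the 105 genes had a count in a library. A difference was called at an adjusted p under 0.05 in the quasi-likelihood test of edgeR, with Benjamini-Hochberg adjustment over all 18828 genes tested. Adjusted p-values below come from that test, except where an alternative fit or a range over such fits is named. Fold changes are agc1-4 over WT, and their base-2 logarithms (log2 fold changes or log2 differences) stand with a standard error (SE). In siliques, a bulk tissue, fewer cells of a type and less RNA per cell cannot be told apart.

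The target of the mutation was low in every library labelled agc1-4. AGC1-4, which encodes an AGC-family protein kinase, was identified with AT5G40030 on background knowledge, since neither the table nor RefSeq names the locus. Its FPKM was 0.63, 1.78 and 1.01 in WT and 0.09, 0.39 and 0.07 in agc1-4, from 10, 39 and 16 counts against 2, 7 and 1. The genotypes did not overlap, and AT5G40030 fell by 2.66 ± 0.54 (SE) on the log2 scale (adjusted p = 0.000983). An exact two-sided permutation test gave p = 0.1, the smallest that 3 libraries against 3 allow. Without WT replicate 2, the library with the most counts of this gene, it had too few counts to be tested.

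The family was expressed unevenly. Of the 105 genes, 56 had enough counts to be tested and 49 did not. Among the untested genes, 16 had no count in any library, and none exceeded 1.52 FPKM in any library. By mean FPKM over the 6 libraries, 56 genes were at 1 or more, 29 at 10 or more, 13 at 50 or more and 6 at 100 or more. The 3 genes with the highest level held between 44.7% and 49.8% of the family's summed FPKM in a library, and the top 8 held between 67.4% and 70.6%. The summed FPKM of all 105 genes was 2507, 2623 and 2512 in WT and 2490, 2515 and 2484 in agc1-4. These totals overlapped between the genotypes, at 2547 ± 65.9 (SD, n = 3) in WT and 2496 ± 16.6 (SD, n = 3) in agc1-4.

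Individual members differed between the genotypes in both directions. Of the 56 tested genes, 12 were called (21.4%), where 13.6% of all tested genes were called. Higher levels in agc1-4 were called for 5 genes (8.93% of those tested, beside 6.55% of all genes). Lower levels were called for 7 genes (12.5%, beside 7.07% of all genes). The median log2 fold change of the tested members was -0.07, beside 0.00 over all genes, and its median size regardless of sign was 0.25, beside 0.14. WT and agc1-4 were fully separated in FPKM for 24 of the 56 members (42.9%), beside 29.5% of all tested genes. The remaining 44 tested members had log2 fold changes from -0.69 to 0.87. Summed over the called genes, the 7 lower ones accounted for -161.4 FPKM between the genotype means and the 5 higher ones for 120.4 FPKM.

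**Figure D1:**
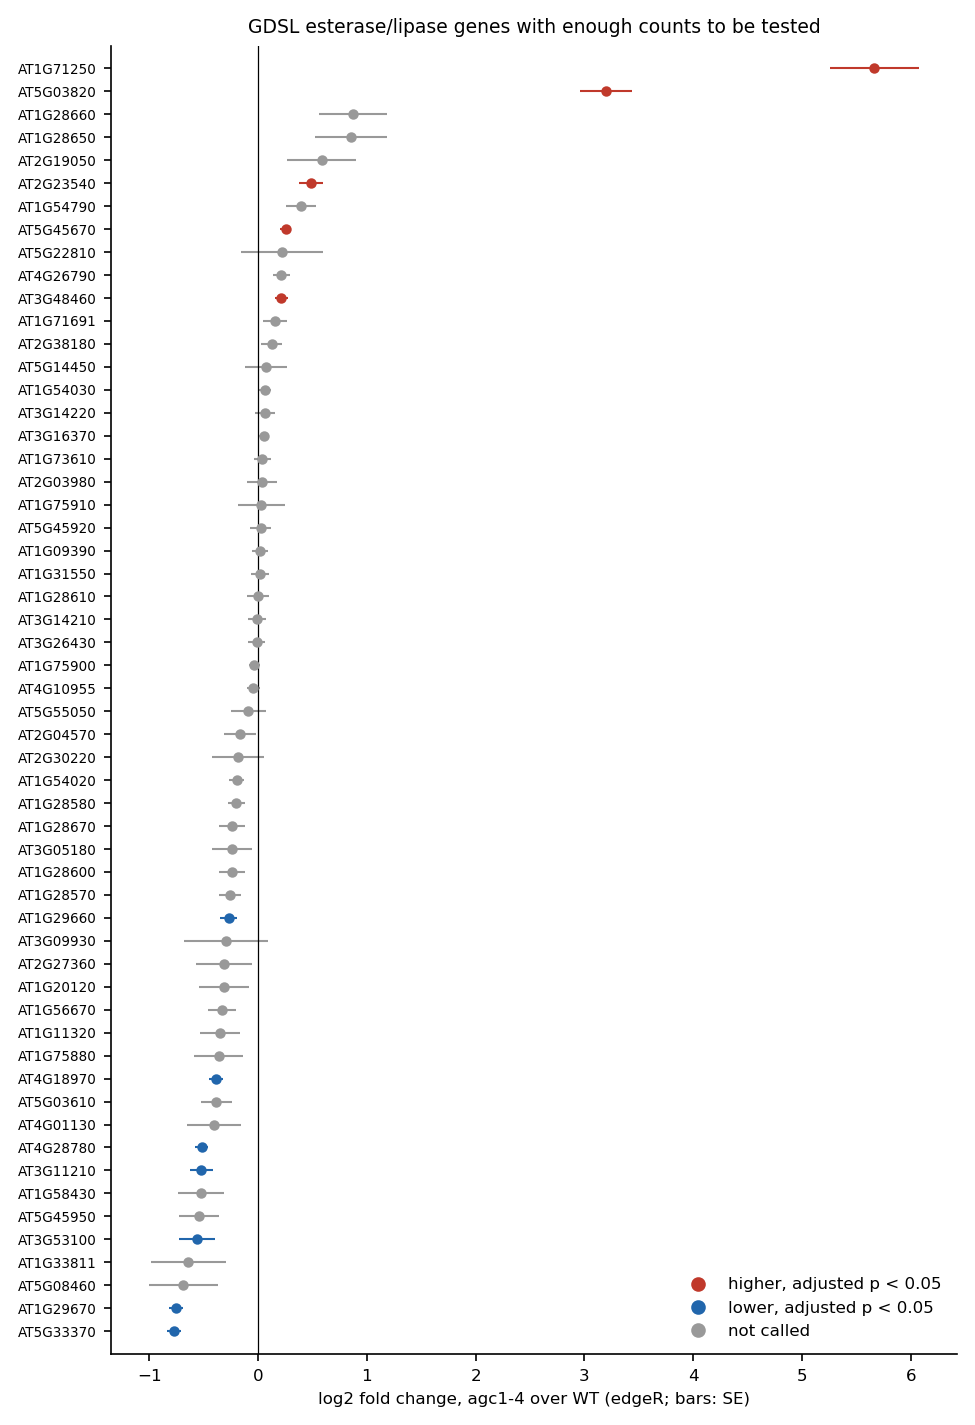
Log2 fold change (agc1-4 over WT, edgeR) of the 56 tested GDSL esterase/lipase genes, ordered by size, with bars of 1 SE. The 5 genes called higher are red and the 7 called lower are blue. AT1G71250 and AT5G03820 stand at 5.66 and 3.20, and the called lower genes lie between -0.77 and -0.27.

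AT1G71250 and AT5G03820 were low in WT siliques, with AT1G71250 at 1 or 2 counts per library, and both were several-fold higher in every agc1-4 library. Both are annotated as GDSL esterases/lipases without a name in the table. The stretches of coding sequence around the block that gives the family its name are shown because the block defines the family and the copies can be compared base by base. Each runs 5′ to 3′ over 42 bases of the RefSeq annotation (TAIR10.1), with the 4 codons of the block in capitals, and the near-identical neighbour AT5G03810 is included.
AT1G71250: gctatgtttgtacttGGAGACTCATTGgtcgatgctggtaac
AT5G03820: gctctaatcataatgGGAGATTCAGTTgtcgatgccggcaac
AT5G03810: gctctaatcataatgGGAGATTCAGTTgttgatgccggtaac
AT1G71250 and AT5G03820 differ at 12 of the 42 bases, and AT5G03820 and AT5G03810 at 2, none of them in the capitals. Such a block was searched within the first 120 codons as glycine, aspartate, serine or threonine, and 1 of 12 further residues. It was found in 99 of the 105 members and in 3.73% of 27444 coding genes. In 25 members the block found read exactly GDSL, AT1G71250 among them, but in AT5G03820 and AT5G03810 it did not.

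AT1G71250 had 2, 1 and 1 counts in the WT libraries, against 112, 69 and 50 in agc1-4. Its FPKM was 0.18, 0.07 and 0.09 in WT and 7.38, 5.60 and 4.88 in agc1-4. All 3 agc1-4 libraries lay far above all WT libraries. Per total count the ratio was 56.1, with a 95% interval of 21.6 to 208 that covers counting error only (exact binomial). The fitted log2 difference came to 5.66 ± 0.41 (SE), at an adjusted p of 6.49e-11. AT1G71250, which an earlier account of these data had already named, had the largest fold change of the tested members. It had enough counts to be tested only through its agc1-4 libraries, and a gene as low in both genotypes would not have been tested. On the log2(FPKM + 1) scale in limma, which understates the change of low genes, AT1G71250 differed by 2.63.

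AT5G03820 had 11, 20 and 6 counts in the WT libraries, against 161, 111 and 83 in agc1-4, or 0.84, 1.11 and 0.49 FPKM against 8.82, 7.49 and 6.77. The lowest agc1-4 library was above the highest WT library. The fold was 9.20, with a log2 difference of 3.20 ± 0.24 (SE) and an adjusted p of 1.38e-10. The WT counts of AT5G03820 alone would have been too few for it to be tested. On the log2(FPKM + 1) scale AT5G03820 differed by 2.27. Its neighbour AT5G03810 has 91.7% of coding bases in common with it, and their counts could be divided between the copies by the authors' counting. AT5G03810 had 2, 2 and 0 counts in the WT libraries, against 3, 0 and 0 in agc1-4, too few to be tested.

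The 250 bases upstream of both genes are printed because AT1G71250 and AT5G03820 had the largest fold changes of the tested members. The windows were read by locus from RefSeq TAIR10.1 (the build behind the deposited values is not given in the sources used here), at chr1:26859860-26860109 on the plus strand and chr5:1017515-1017764 on the minus strand. Capitals mark CATGCA, the core of the RY element to which B3 transcription factors of seed development bind.
AT1G71250 upstream: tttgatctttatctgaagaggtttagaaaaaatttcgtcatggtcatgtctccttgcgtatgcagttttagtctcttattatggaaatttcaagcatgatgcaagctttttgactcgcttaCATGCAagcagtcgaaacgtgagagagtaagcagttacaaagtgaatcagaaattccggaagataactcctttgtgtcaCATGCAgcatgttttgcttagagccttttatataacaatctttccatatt
AT5G03820 upstream: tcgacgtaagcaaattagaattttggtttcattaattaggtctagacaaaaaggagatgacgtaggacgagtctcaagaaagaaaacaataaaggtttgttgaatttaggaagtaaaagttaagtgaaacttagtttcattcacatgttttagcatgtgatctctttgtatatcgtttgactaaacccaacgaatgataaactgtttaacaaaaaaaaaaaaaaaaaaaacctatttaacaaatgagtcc
CATGCA, searched on both strands, occurred 2 times upstream of AT1G71250, starting at positions -129 and -50 from the annotated gene start, and 0 times upstream of AT5G03820. Of 27443 upstream windows of this length, 8.43% held it, and of the 105 members' windows, 16 (15.2%). CCAAT, the box to which NF-Y complexes with LEC1 bind, was found 0 times in both windows. It occurred in 46% of all windows and in 50 of the 105 members' windows (47.6%). Neither motif contains the other, and a match is a description of the letters only.

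The other 3 members called higher rose by much smaller folds, and SFAR4 is described with the seed fatty acid genes. AT2G23540 had 13.4, 14.2 and 10.7 FPKM in WT and 18.9, 15.9 and 19.2 in agc1-4. Its lowest agc1-4 value was above its highest WT value, and the log2 difference came to 0.49 ± 0.11 (SE), at an adjusted p of 0.00271. AT5G45670 was the most abundant member of the family. Its level was 441, 465 and 424 FPKM in WT and 523, 533 and 530 in agc1-4. The agc1-4 libraries lay close together and above WT, by 0.25 ± 0.05 (SE) on the log2 scale (adjusted p = 0.000546).

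The members called lower were mostly of intermediate or high abundance. AT5G33370, published as CUS2 (a name from background knowledge), is a cutin synthase needed for the cuticular ridges of sepals. It had 95.6, 109 and 97.7 FPKM in WT and 54.0, 62.1 and 61.8 in agc1-4. No agc1-4 library reached the lowest WT library. AT5G33370 fell by 0.77 ± 0.07 (SE) on the log2 scale (adjusted p = 2.05e-09), the largest fall among the tested members. AT4G28780 was at 81.4, 84.3 and 70.8 FPKM in WT and at 55.3, 52.9 and 57.1 in agc1-4, again without overlap. It fell by 0.52 ± 0.06 (SE) with an adjusted p of 1.17e-06. The closest coding sequence to that of AT4G28780 is AT5G33370, at 67.6% identity over the aligned bases. The closest to AT5G33370 is LTL1, at 72.1%.

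A pair of neighbouring genes on chromosome 1 fell as well. AT1G29670 had 109, 119 and 97.4 FPKM in WT and 63.3, 62.5 and 67.6 in agc1-4. The genotypes were well apart, and the gene fell by 0.76 ± 0.07 (SE) on the log2 scale (adjusted p = 4.2e-09). AT1G29660, next to it with no protein-coding gene between, had 173, 165 and 192 FPKM in WT and 161, 147 and 129 in agc1-4. Here the highest agc1-4 library was just under the lowest WT library. AT1G29660 fell by 0.27 ± 0.08 (SE) with an adjusted p of 0.0229, and over 12 alternative fits that p ranged from 0.000894 to 0.0889. Its call was lost with limma on either pseudocount and without WT replicate 1, WT replicate 3, agc1-4 replicate 2 or agc1-4 replicate 3. The difference between the falls of the neighbours was not tested.

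The blocks of these genes are shown with those of AT5G45670 and AT4G18970, since the latter pair moved in opposite directions.
AT5G33370: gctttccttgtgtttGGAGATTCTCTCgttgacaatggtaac
AT4G28780: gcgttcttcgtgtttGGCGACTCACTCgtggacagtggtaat
AT1G29670: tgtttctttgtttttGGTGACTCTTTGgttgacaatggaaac
AT1G29660: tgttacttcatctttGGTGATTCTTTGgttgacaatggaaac
AT5G45670: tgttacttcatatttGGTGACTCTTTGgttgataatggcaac
AT4G18970: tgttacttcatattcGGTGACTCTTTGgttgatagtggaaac
AT5G33370 and AT4G28780 differ at 9 of the 42 bases, AT1G29670 and AT1G29660 at 5, and AT5G45670 and AT4G18970 at 3, with the same capitals in the last pair. AT5G45670 and AT4G18970 are 81.2% identical over the aligned part of their coding sequences. The alignment covers 98.4% of that of AT5G45670 and 86.9% of that of AT4G18970. AT4G18970 had 68.1, 66.5 and 65.2 FPKM in WT and 47.6, 51.9 and 54.0 in agc1-4. It was lower in every agc1-4 library, by a log2 difference of -0.38 ± 0.06 (SE) with an adjusted p of 8.16e-05, whereas AT5G45670 was higher.

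The last 2 genes called lower were less abundant. AT3G11210, described in the table as CPRD49, had 14.3, 16.4 and 14.1 FPKM in WT and 10.2, 11.1 and 9.88 in agc1-4. It fell by 0.52 ± 0.11 (SE) on the log2 scale with an adjusted p of 0.001, without overlap. RefSeq names its product an SGNH hydrolase-type esterase, without the term GDSL, and the search found no block within its first 120 codons. AT3G53100 was at 5.25, 5.24 and 5.40 FPKM in WT and at 3.62, 4.00 and 3.06 in agc1-4. AT3G53100 fell by 0.56 ± 0.17 (SE) with an adjusted p of 0.0212. That call was lost with DESeq2 and when WT replicate 1, agc1-4 replicate 1 or agc1-4 replicate 3 was left out, with adjusted p-values up to 0.107.

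**Figure D2:**
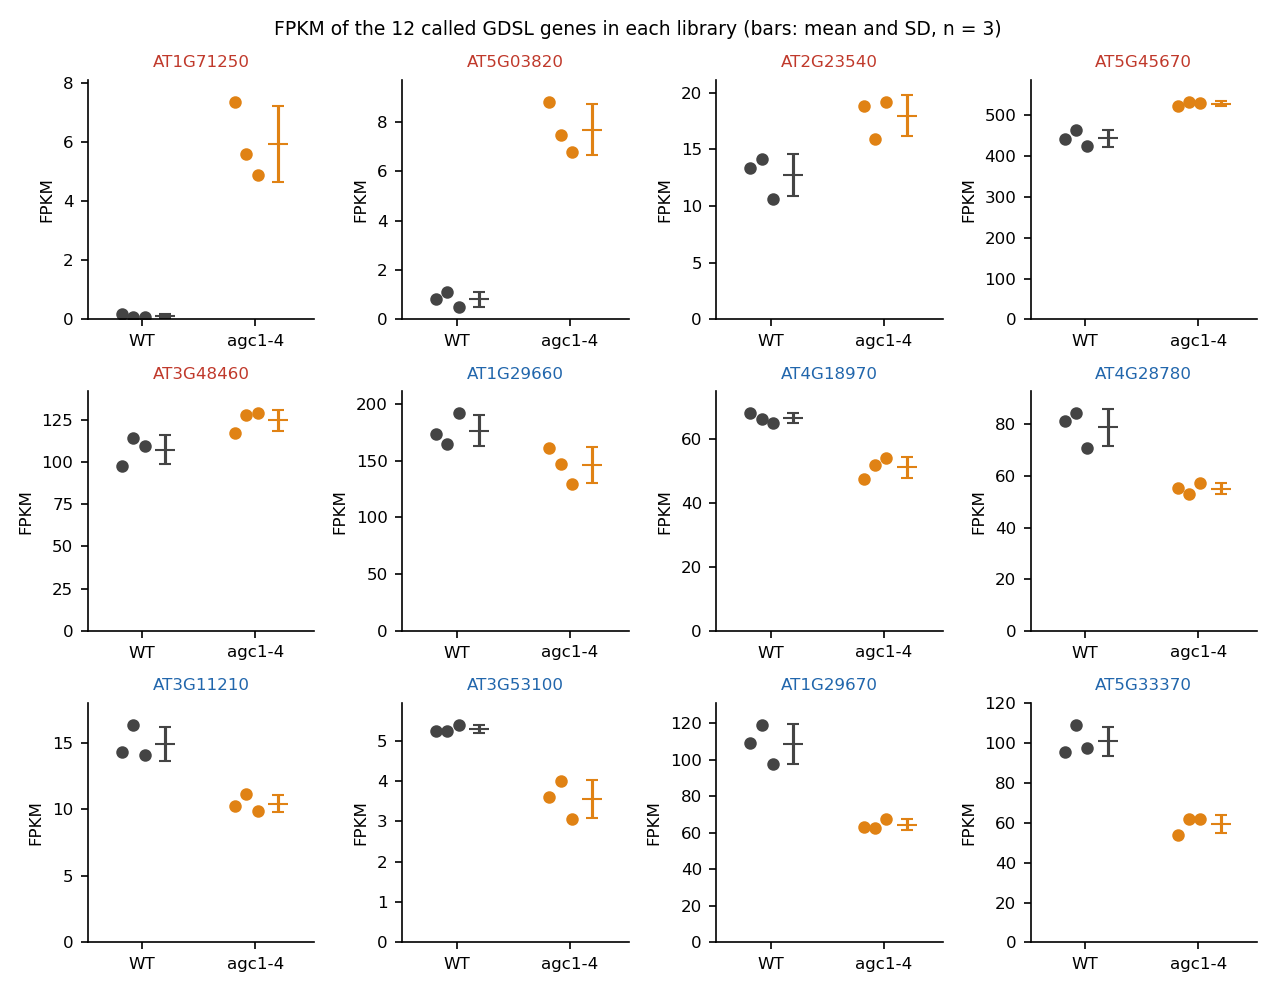
FPKM of the 12 called GDSL esterase/lipase genes in each library, with 1 point per library and the mean and SD of 3 libraries beside the points; the axes start at 0 and differ between panels. Titles are red for genes called higher and blue for genes called lower. The genotypes do not overlap in any panel, and AT1G71250 and AT5G03820 lie below 1.2 FPKM in every WT library.

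The seed fatty acid reducers, SFAR1 to SFAR5, lower the fatty acid content of seeds when active and carry names from background knowledge, not from the table. They did not move in 1 direction. SFAR4 (AT3G48460) had 97.9, 114 and 109 FPKM in WT and 117, 128 and 129 in agc1-4. The lowest agc1-4 library was just above the highest WT library. The log2 difference came to 0.21 ± 0.06 (SE), at an adjusted p of 0.0194. The call on SFAR4 was lost with limma on either pseudocount and when WT replicate 1, agc1-4 replicate 2 or agc1-4 replicate 3 was left out, with adjusted p-values up to 0.137. SFAR5 is AT4G18970, called lower. SFAR1 (AT1G54790) was at 8.67, 7.37 and 8.13 FPKM in WT and at 9.19, 11.3 and 10.5 in agc1-4. Its log2 fold change was 0.39 ± 0.14 (SE) and missed the threshold (adjusted p = 0.0565). It passed without a filter on low counts (adjusted p = 0.0432), without WT replicate 1 (0.0427) and without agc1-4 replicate 1 (0.0408). SFAR2 (AT1G58430, RXF26 in the table) had a mean of 4.31 FPKM in WT and 3.08 in agc1-4 (log2 fold change -0.52 ± 0.21, SE, adjusted p = 0.103). SFAR3 (AT2G42990) stayed at or under 0.39 FPKM and was not tested.

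The extracellular lipases EXL1 to EXL6, first known from the pollen coat, form the longest run of neighbouring members, of 6 genes on chromosome 1. EXL3 (AT1G75900) was the second most abundant gene of the whole family. It was at 362, 391 and 359 FPKM in WT and at 360, 370 and 356 in agc1-4. These values overlapped, and the log2 difference came to -0.04 ± 0.05 (SE), at an adjusted p of 0.709. EXL4 (AT1G75910), a pollen coat protein needed for hydration on the stigma, had means of 4.58 FPKM in WT and 4.66 in agc1-4. EXL1 (AT1G75880) had means of 3.26 and 2.54 FPKM. Neither passed the test, and EXL2, EXL5 and EXL6 had too few counts for it, EXL6 with 0 in every library. EXL3 was therefore far above its neighbours in every library.

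Pollen and anther markers were read beside these genes. Of the pollen list (VGD1, VGDH1, PPME1, AGP6, AGP11, SKS13 and RALF4), 7 of 7 genes were tested and 0 were called in either direction, although all 7 had positive log2 fold changes, with a median of 0.24, and 3 had an unadjusted p under 0.05 (edgeR). Without WT replicate 3, 4 of the 7 (VGD1, VGDH1, AGP11 and SKS13) were called higher. Without agc1-4 replicate 2, with DESeq2 or with limma on log2(FPKM + 1), 1 was called higher, and with no filter on low counts 2 were. The part of pollen in the members' values was not tested. The summed FPKM of the pollen list lay between 210 and 281 in WT and between 265 and 312 in agc1-4. The tapetum list summed to between 0.12 and 0.87 FPKM in WT and between 0.0 and 0.50 in agc1-4, with 3 of its 6 genes at 0 in every library.

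The members of defence and glucosinolate breakdown included both silent and abundant genes. Of GLIP1 to GLIP7, secreted lipases of which GLIP1 is needed for resistance to Alternaria, 5 match the rule, and 4 of those had no count in any library. ESM1 (AT3G14210), which shifts glucosinolate breakdown towards isothiocyanates, was at 22.2, 22.1 and 22.4 FPKM in WT and at 21.3, 23.8 and 23.2 in agc1-4. The values overlapped, with a log2 difference of -0.01 ± 0.08 (SE) and an adjusted p of 0.96. MVP1 (AT1G54030), needed for the shape of the endoplasmic reticulum, was sixth in the family at 101, 109 and 101 FPKM in WT and 111, 106 and 109 in agc1-4. Its log2 difference came to 0.06 ± 0.06 (SE), at an adjusted p of 0.507. In the list of other genes of the endoplasmic reticulum body and glucosinolate breakdown, 5 of 7 were tested and 0 called (edgeR and DESeq2; 0 at an unadjusted p under 0.05), with a median log2 fold change of 0.00. Without agc1-4 replicate 3, 1 of them, the myrosinase gene TGG1, was called higher.

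The other abundant members showed no call. APG (AT3G16370), named for its similarity to an anther-specific proline-rich protein, held the third rank at 320, 323 and 340 FPKM in WT and 336, 349 and 333 in agc1-4. The genotypes overlapped, and the log2 difference came to 0.05 ± 0.05 (SE), at an adjusted p of 0.576. AT4G10955 ranked eighth, with 86.3, 88.7 and 81.5 FPKM in WT and 82.7, 78.7 and 86.3 in agc1-4 (adjusted p = 0.718). The table describes AT4G10955 with the term GDSL, but RefSeq gives it as an alpha/beta-hydrolase. The acetylcholinesterase-like AT3G26430 had a mean of 22.0 FPKM in WT and 21.7 in agc1-4 (adjusted p = 0.943).

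Position along the chromosomes was uneven, with 43 members on chromosome 1, 16 each on chromosomes 2 and 3, 8 on chromosome 4 and 22 on chromosome 5. Of the 105 genes, 42 lie in 14 runs with no other protein-coding gene between them. Of the 12 called genes, 3 lie in such runs: AT1G29660 and AT1G29670, which fell, and AT5G03820, which rose beside AT5G03810. In the run from AT1G28640 to AT1G28670, 3 genes had higher means in agc1-4 and 1 a lower mean. AT1G28650 was at 0.78, 1.26 and 1.65 FPKM in WT and at 1.74, 3.13 and 1.84 in agc1-4 (log2 fold change 0.85 ± 0.33, SE, adjusted p = 0.089). AT1G28660 was at 0.95, 0.92 and 0.98 FPKM in WT and at 1.56, 1.65 and 1.99 in agc1-4 (0.87 ± 0.31, SE, adjusted p = 0.0631). Their WT and agc1-4 values did not overlap, but neither gene passed the test. AT1G28640 had 0 counts in every WT library and 1 in each agc1-4 library. AT1G28670, 91.9% identical to AT1G28660 in its coding sequence, had means of 11.7 and 9.89 FPKM (adjusted p = 0.217). Its genotypes did not overlap either, with a lowest WT value of 11.07 FPKM and a highest agc1-4 value of 11.04.

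**Figure D3:**
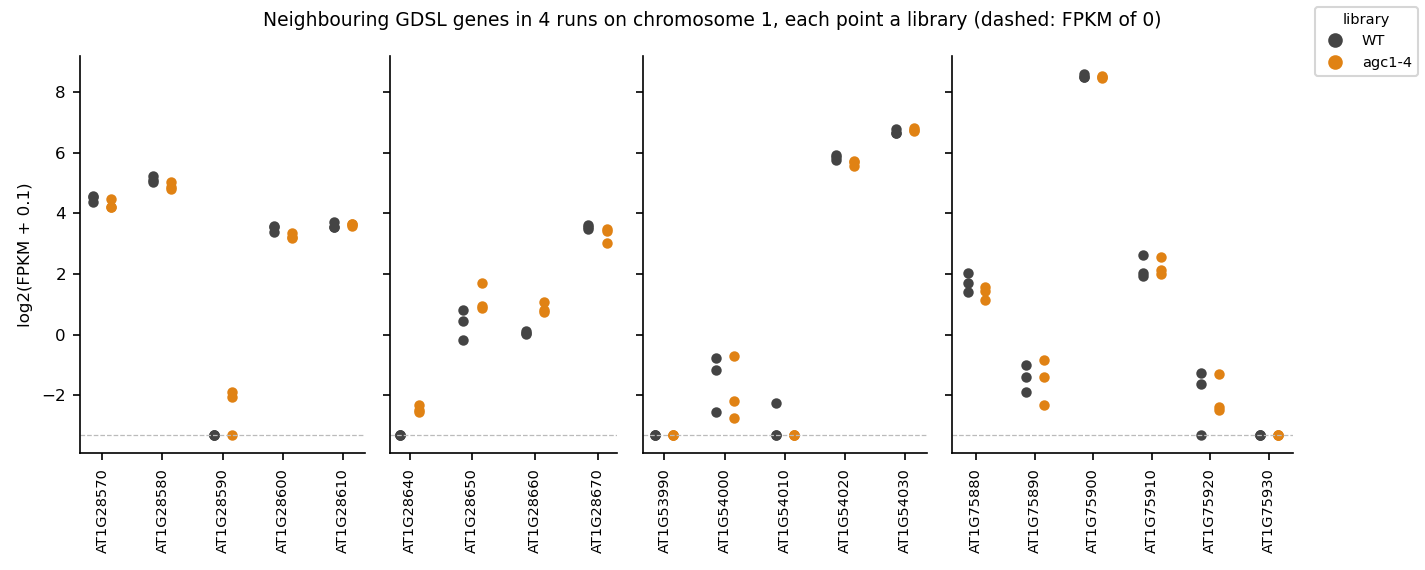
Level on a log2(FPKM + 0.1) scale of the members in 4 runs of neighbouring GDSL genes on chromosome 1, with 1 point per library (WT dark, agc1-4 orange) and a dashed line at 0 FPKM. Each run holds members at or near 0 beside expressed ones, and the run from AT1G75880 to AT1G75930 spans most, from EXL6 (AT1G75930) at 0 to EXL3 (AT1G75900) at 371 FPKM in WT.

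Other uncalled members came close to the threshold. AT5G45950 was at 5.16, 7.37 and 5.78 FPKM in WT and at 3.88, 5.08 and 3.77 in agc1-4 (adjusted p = 0.0506). AT4G26790 was at 43.1, 50.2 and 42.0 FPKM in WT and at 52.8, 55.0 and 49.8 in agc1-4 (adjusted p = 0.0519). The last gene overlapped between genotypes at 49.8 and 50.2 FPKM, while AT5G45950 did not overlap. AT5G45950 was called lower when WT replicate 1, WT replicate 3 or agc1-4 replicate 2 was left out (adjusted p of 0.0409, 0.0485 and 0.0424) and with no filter on low counts (0.0338). AT4G26790 was called higher without WT replicate 2 (adjusted p of 0.00378) and with no filter (0.0325). AT1G54020 was at 54.6, 60.9 and 57.7 FPKM in WT and at 47.0, 52.3 and 52.8 in agc1-4 (adjusted p = 0.059).

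Family members whose description in the table lacks the term GDSL were outside the rule. LTL1 (AT3G04290), a lipase of lithium tolerance that belongs to the cutin synthase group, had 9.16, 9.42 and 12.1 FPKM in WT and 7.79, 7.28 and 6.69 in agc1-4. It fell by 0.48 ± 0.14 (SE) on the log2 scale (adjusted p = 0.0173), without overlap. CDEF1 (AT4G30140), a pollen cutinase, had 2.34, 3.28 and 3.20 FPKM in WT and 4.18, 3.71 and 6.11 in agc1-4, and rose by 0.63 ± 0.22 (SE), with an adjusted p of 0.0484. The call on LTL1 was lost with DESeq2 and when WT replicate 3, agc1-4 replicate 2 or agc1-4 replicate 3 was left out, reaching 0.103. The call on CDEF1 was lost with DESeq2, with limma on either pseudocount and on leaving out replicate 1 of either genotype or agc1-4 replicate 3, where its p rose to as much as 0.295. FXG1 (AT1G67830), which trims xyloglucan, had means of 39.2 and 35.7 FPKM (adjusted p = 0.218).

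Genes of cutin synthesis and export were read beside CUS2. Of 18 listed genes, 16 were tested, 6 were lower in agc1-4 and 0 higher, with a median log2 fold change of -0.13. Over all tested genes, 7.07% were called lower and 6.55% higher. SHN3, a transcription factor of the cuticle, had 100.2, 100.2 and 94.0 FPKM in WT and 73.1, 75.2 and 80.8 in agc1-4. It fell by 0.37 ± 0.06 (SE) on the log2 scale (adjusted p = 0.000177). LACS1, which activates long-chain fatty acids for cutin and wax, fell from 203 ± 0.577 to 169 ± 2.23 FPKM (SD, n = 3; adjusted p = 0.000333). MYB16, another cuticle regulator, fell from 33.3 ± 4.72 to 24.9 ± 0.365 FPKM (SD, n = 3; adjusted p = 0.000853). The remaining called genes were GPAT6 (adjusted p = 0.00231), ABCG32 (0.00238) and CYP77A6 (0.0372). The call on CYP77A6 held in only 4 of 12 alternative fits, and of the 6 libraries only WT replicate 3 could be left out without losing it. The summed FPKM of the list was between 1635 and 1683 in WT and between 1551 and 1604 in agc1-4. Of the suberin list, 3 of 10 genes were tested and 1 was lower, FAR1, an alcohol-forming reductase, from 0.987 to 0.333 FPKM on average (adjusted p = 0.0172). That call was lost with DESeq2 and on leaving out WT replicate 3 or any agc1-4 library, with adjusted p-values up to 0.091.

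Genes of seed oil synthesis were read beside the SFAR genes. Of 12 listed genes, 9 were tested, with 1 higher and 1 lower and a median log2 fold change of -0.05. The shares over all tested genes were 6.55% higher and 7.07% lower. WRI1, the transcription factor of seed oil synthesis, had 8.97, 7.88 and 6.65 FPKM in WT and 10.6, 9.82 and 13.2 in agc1-4. It rose by 0.55 ± 0.14 (SE) on the log2 scale (adjusted p = 0.00754), and the call was lost without agc1-4 replicate 3. FAD3, the desaturase that makes linolenic acid, fell from 109 to 87.0 FPKM on average (adjusted p = 0.000252).

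**Figure D4:**
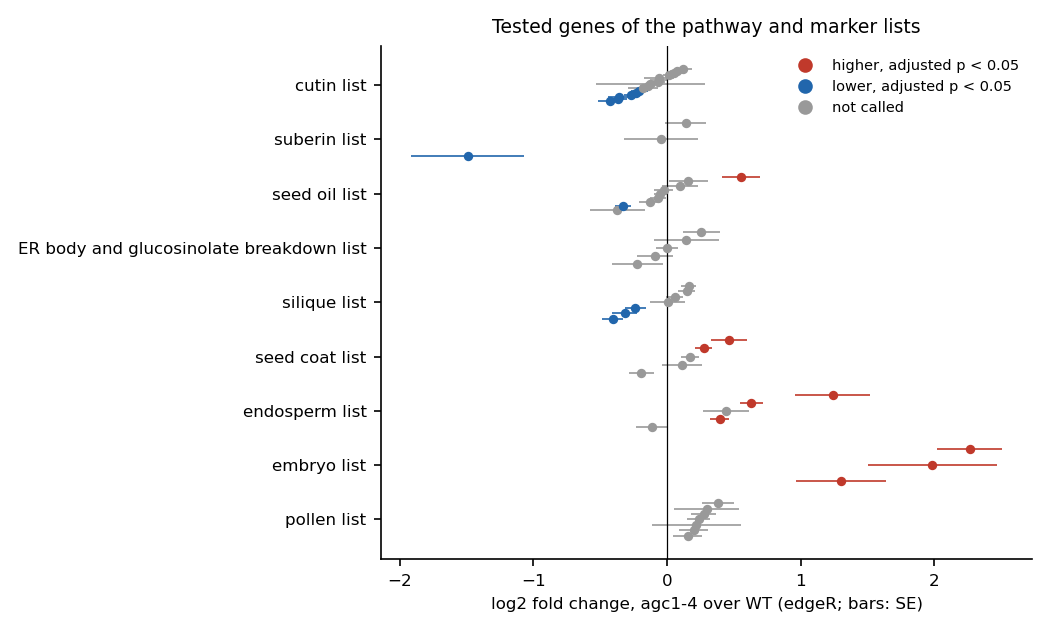
Log2 fold change (agc1-4 over WT, edgeR) of the tested genes of each pathway or marker list, with bars of 1 SE, red for genes called higher and blue for genes called lower. In the cutin list 6 of 16 genes are called lower, and in the embryo list 3 of 3 are called higher, up to 2.27 for LEC1. Of all tested genes, 7.07% are called lower and 6.55% higher.

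Markers of the seed compartments differed between the genotypes, and their part in the results above was not tested. The counts below stand beside 6.55% of all tested genes called higher and 7.07% called lower. Of the embryo list, 3 of 4 genes were tested and all 3 were higher in agc1-4. Its summed FPKM was between 2.28 and 4.46 in WT and between 12.9 and 13.8 in agc1-4. LEC1, a master regulator of embryo development, rose from 2.11 ± 0.908 to 9.69 ± 0.701 FPKM (SD, n = 3; adjusted p = 1.45e-07). Of the endosperm list, 5 were tested and 3 were higher (MPC, FWA and ZOU), and the list summed to between 88.8 and 97.5 FPKM in WT and between 130 and 146 in agc1-4. Of the seed coat list, 5 were tested and 2 were higher (TT8 and TT10). Its sums overlapped, at 547 to 729 FPKM in WT and 636 to 708 in agc1-4. Of the fruit wall list, 7 were tested and 3 were lower (RPL, BP and FUL), with sums of 470 to 507 FPKM in WT and 484 to 528 in agc1-4. The calls on BP, FUL and TT10 were lost in 8, 7 and 4 of 12 alternative fits. All 3 were lost with DESeq2. Among the libraries left out, BP kept its call only without WT replicate 3, FUL only without WT replicate 3 or agc1-4 replicate 1, and TT10 lost it without replicate 2 of either genotype and without agc1-4 replicate 1. SHP1 was called higher with no filter on low counts, with the replicate block and without WT replicate 2 or agc1-4 replicate 1. FIS2 of the endosperm list was called higher with no filter and without WT replicate 2. TT12 was called lower without WT replicate 2, and ANR higher without WT replicate 3. RPL and TT8 were called in all 12 alternative fits, and WOX8 of the embryo list lost its call with DESeq2 (0.0566) alone.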

How the data were processed

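RNA was extracted with Trizol and sequenced as Illumina libraries, per the labels' protocols, and 6 libraries (3 WT, 3 agc1-4) were analysed. The authors deposited 1 table of 27779 genes with 12 value columns. Of these, 6 hold estimated counts, per the file headers and values, with 4.32% to 4.86% of a library's values not whole, and 6 hold FPKM as computed by the authors. The aligner, counter, genome build and strandedness are not given in the sources used here. Values of near-identical copies (13 members have a copy over 90% identical where aligned) and of overlapping genes are therefore uncertain.

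Estimated counts were rounded and tested with edgeR 4.0.16 in R 4.3.3 (TMM, filterByExpr, robust quasi-likelihood F-test, no covariates), with Benjamini-Hochberg adjustment over 18828 genes and a call at an adjusted p under 0.05. The SE is the log2 fold change divided by the square root of F. Alternatives were RLE size factors, no filter, DESeq2 1.42.0, limma 3.58.1 on log2(FPKM + 1) and log2(FPKM + 0.1), a replicate block, each library left out, an adjusted p under 0.01 and membership by RefSeq product name. The procedure was tested on simulated data. No 2 libraries agreed within sampling noise.

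The rule for members uses the annotation only, but the family, all gene lists and the motifs were chosen with earlier results of these data known. AT1G71250 had been named by an earlier account of these data. The genes named are AT1G71250, all called members, the 8 members with the highest mean FPKM, members with published roles at a mean of at least 1 FPKM, neighbours of called members at that level, up to 3 called genes per list by adjusted p, and the target; other genes in the text were chosen after their values were seen. Sequences and neighbours come from RefSeq (TAIR10.1), in which 92 of the 105 members have a product name with GDSL.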

Additional observations from a re-analysis of the deposited data

How the results depend on the processing

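Among the 12 called members, 9 kept their call in all 12 alternative fits (RLE, no filter, DESeq2, limma on both pseudocounts, the replicate block and each of 6 libraries left out). The 3 exceptions are AT1G29660, AT3G48460 and AT3G53100. Over these alternatives, an adjusted p under 0.01 and membership by RefSeq product name, between 4 and 7 members were called higher and between 5 and 8 lower. Over all genes, 2564 were called, against 1586 with DESeq2 and 1428 at an adjusted p under 0.01, and between 1688 (without agc1-4 replicate 2) and 2816 with 1 library left out. The cause was not tested. The members' median log2 fold change was -0.13 without agc1-4 replicate 1.

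Of the members recomputed under these fits, EXL4, ESM1 and AT3G26430 changed sign in some fit, and none of these is called. With 1 library left out, the log2 fold change ranged from -0.16 to 0.27 for EXL4, from -0.044 to 0.047 for ESM1 and from -0.076 to 0.07 for AT3G26430. ESM1 was at 0.031 with limma on log2(FPKM + 0.1) and at 0.03 on log2(FPKM + 1).

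Replicate numbers are shared between the genotypes, but same-numbered libraries did not deviate together, with correlations of -0.03, 0.005 and 0.034. With the replicate block, 6 members were called higher and 8 lower, and 2643 genes in all. It also called AT5G45950 (adjusted p = 0.0472, edgeR) and AT4G26790 (0.0345). Of the lists, it further called SHP1, TGG1 and 3 pollen markers higher and TGG2 lower. Of the 49 members with too few counts for the filter, 33 had a count and could be fitted without it. None of the 33 was called without the filter (edgeR; 2 at an unadjusted p under 0.05), and none of the 17 given an adjusted p by DESeq2 (0 at an unadjusted p under 0.05).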

Other observations

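The neighbours of AT1G71250 were read after its values were seen. WHY2 (AT1G71260), a mitochondrial DNA-binding protein, had 21.9, 24.6 and 25.3 FPKM in WT and 31.4, 32.5 and 30.4 in agc1-4, and rose by 0.39 ± 0.10 (SE) on the log2 scale (adjusted p = 0.00462, edgeR). AT1G71240, on the other side, had means of 8.17 and 9.16 FPKM (adjusted p = 0.298, edgeR). Beyond the EXL run and BGLU20, AT1G75945 had 1.54, 0.93 and 0.77 FPKM in WT and 34.9, 37.3 and 34.5 in agc1-4, a log2 difference of 5.03 ± 0.25 (SE, adjusted p = 1.74e-14, edgeR). It was chosen after its values were seen.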
